A study of Mus musculus with 27 samples.

Results

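Imprinted genes that carry germline methylation on the copy from the mother were described in hepatocyte DNA of 9 inbred mouse strains. The 10 genes were Kcnq1ot1, Airn, Igf2r, Peg3, Snrpn, Peg10, Sgce, Plagl1, Impact and Grb10. Positions were taken within the GRCm38 span of each gene plus 5 kb on either side, and a position was kept when it was listed in at least 2 of 3 samples of every strain. These windows held 940 kept positions, out of 1951628 over the whole genome, from 27 positions at Peg3 to 379 at Grb10. Neighbouring windows overlapped at Peg10 and Sgce and at Airn and Igf2r, and shared positions were counted once in the total.

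The parenchymal cells of the liver, hepatocytes, came from 27 female mice aged 12 weeks. They belonged to the laboratory strains A/J, 129S1/SvImJ, DBA/2J, C57BL/6J, NZO/HlLtJ and NOD/ShiLtJ and to the strains WSB/EiJ, CAST/EiJ and PWK/PhJ, which derive from wild mice, with 3 samples called biological replicates per strain. No mouse was treated and no strain served as a control. Methylation was read by reduced representation bisulfite sequencing (RRBS), which covers CpG-rich fragments cut by the enzyme MspI, and each value is the percent methylation of a single position. All strains are inbred, so the copies from both parents have the same sequence and were not separated: a level is an average over both copies and over all cells of a sample.

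Imprinted genes are expressed mainly from the copy of a single parent. At most of these genes an imprinting control region is methylated in the egg and left unmethylated in sperm, and the difference is kept in the cells of the offspring, so that such a region read over both copies lies at an intermediate level. ZFP57, a zinc finger protein that binds the motif TGCCGC when it is methylated, helps to keep this methylation after fertilisation. Igf2r is an exception in the list: its own control region is the start of Airn inside the gene, and its promoter gains methylation on the copy from the father later.

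Between 2904738 and 3156915 positions were listed per sample, and of the 940 kept positions 899 to 940 were listed in each. The files used here give no read depth, so counting error is unknown and errors below are the spread between the 3 samples of a strain. Of 302684 kept positions that fell into the promoters of the RefSeq table for GRCm38.p6, 99.96% lay on a CpG of that sequence. Of 10 hepatocyte marker genes, 5 had positions near their start, at 0.652 to 6.48%. Csf1r, a macrophage gene, was at 90.8% and Pecam1, an endothelial gene, at 89.3%, each from 1 or 2 positions. Starts of several other non-hepatocyte genes, such as Sox9 at 0.871% and Kdr at 1.63%, were low too, so these promoters do not measure the share of other cells in a sample.

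Promoter sequences of 7 of the 10 genes were in the RefSeq table, in 11 windows of 300 bases. The 4 sequences below show where the listed CpGs lay at starts that held an intermediate stretch (Snrpn, Plagl1, Igf2r) and, for contrast, at the main start of Grb10, which did not. Capitals mark the CpGs with a kept position on either strand, and sequences are written 5′ to 3′ on the strand of the gene.
Snrpn, chr7:60005150-60005449, minus strand: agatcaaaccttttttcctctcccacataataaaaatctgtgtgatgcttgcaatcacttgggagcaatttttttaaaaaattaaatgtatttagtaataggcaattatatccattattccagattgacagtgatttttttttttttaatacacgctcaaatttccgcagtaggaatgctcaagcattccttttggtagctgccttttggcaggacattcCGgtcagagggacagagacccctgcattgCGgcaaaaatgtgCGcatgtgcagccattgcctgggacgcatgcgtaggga
Plagl1, chr10:13090582-13090881, plus strand: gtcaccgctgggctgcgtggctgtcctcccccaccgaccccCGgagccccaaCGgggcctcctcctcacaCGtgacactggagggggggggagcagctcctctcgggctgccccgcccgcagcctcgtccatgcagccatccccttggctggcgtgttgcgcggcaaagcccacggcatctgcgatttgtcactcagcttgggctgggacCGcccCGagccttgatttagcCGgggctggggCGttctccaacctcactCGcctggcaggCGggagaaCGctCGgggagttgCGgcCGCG
Igf2r, chr17:12769657-12769956, minus strand: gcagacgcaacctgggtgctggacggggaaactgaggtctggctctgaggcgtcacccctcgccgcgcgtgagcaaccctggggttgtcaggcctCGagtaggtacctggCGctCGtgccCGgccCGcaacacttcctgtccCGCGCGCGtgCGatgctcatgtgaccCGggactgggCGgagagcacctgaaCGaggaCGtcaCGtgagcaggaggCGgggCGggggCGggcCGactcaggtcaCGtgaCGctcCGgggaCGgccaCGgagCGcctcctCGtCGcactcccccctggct
Grb10, chr11:12037371-12037670, minus strand: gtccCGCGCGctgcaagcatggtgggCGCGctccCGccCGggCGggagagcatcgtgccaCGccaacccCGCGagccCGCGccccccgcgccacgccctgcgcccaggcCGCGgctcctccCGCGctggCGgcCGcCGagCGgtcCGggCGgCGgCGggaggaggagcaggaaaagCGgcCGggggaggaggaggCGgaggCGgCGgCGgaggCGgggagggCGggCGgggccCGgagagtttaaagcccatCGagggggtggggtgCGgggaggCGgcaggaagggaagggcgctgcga
At Snrpn 3 of 7 CpGs were listed, with a mean level of 41.0%. At Plagl1 14 of 26 were listed, with a mean of 38.7%, and at Igf2r 27 of 34, with a mean of 35.4%. The Grb10 sequence had more CpGs than any of these, 45, and the 38 that were listed had a mean of 1.26%. TGCCGC was present on either strand in 3 of the 11 windows, those shown for Snrpn, Plagl1 and Grb10, and in 11.6% of the 32851 promoters of the table. It thus occurred in a window that was unmethylated and was not found in the Igf2r window.

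An intermediate stretch was defined as a run of at least 10 kept positions, with gaps of at most 1 kb, over which the running median of 5 positions of the mean of the 9 strains stayed at 30 to 70%. The rule used the mean over strains and not the differences between them. It therefore also took in runs where the means of some strains lay outside these limits. Such runs are part of the share of calls over the genome given below. The rule found 9 stretches in the 10 windows, since Peg10 and Sgce shared a stretch, while Airn and Igf2r shared both the stretch at the start of Airn and that at the start of Igf2r. Together the 9 stretches held 383 positions, of which 376 had a mean level of 30 to 70%, a share that the rule largely sets. Their lengths ran from 136 bp at Peg10 and Sgce to 1309 bp at Impact, and their levels from 37.4% at Igf2r to 44.9% at Impact.

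**Figure D1:**
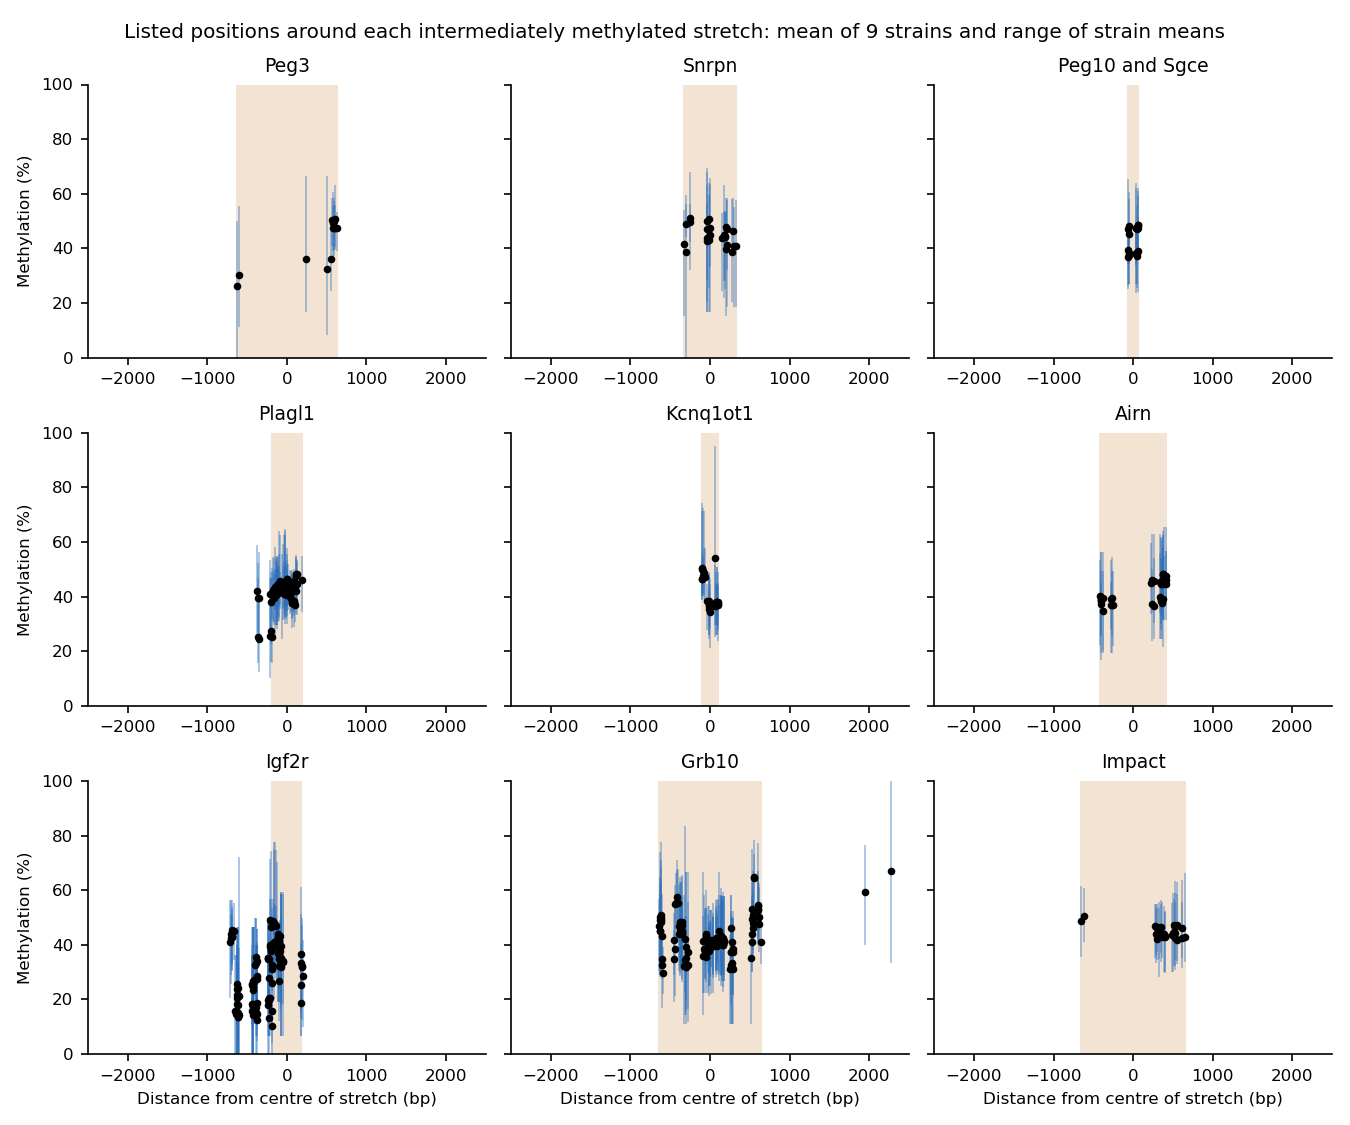
Methylation in percent (y axis) of kept positions against the distance in bp from the centre of each intermediate stretch (x axis). Points are the mean of 9 strains, vertical lines the range of strain means, and shading the stretch; outside the shading, kept positions are plotted at Plagl1, Igf2r and Grb10, and the highest stretch mean is 44.9%, at Impact.

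All strains were at an intermediate level at all 9 stretches, and no difference between strains passed the test. Over the 9 stretches and 9 strains, 81 of 81 strain means lay within 30 to 70%, between 31.7 and 52.5%. Of the 243 values of single samples, 233 lay within these limits, and 209 were below 50%, as were 78 of the 81 strain means. Across the genome the same rule gave 1300 stretches, and the moderated F test of limma over the 9 strains called 78.5% of them different (adjusted p under 0.05 and strain means spanning at least 10 percentage points). It called 0 of the 9, with adjusted p-values of 0.138 to 0.967, and 0 of 9 reached an unadjusted p under 0.05 either, against 80.1% of all stretches. The genes were chosen with earlier results of these data known, so the choice may bear on this contrast, which was not tested. limma in R gave the same calls over the 1298 stretches on which it was compared.

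The range of strain means had a median of 10.7 percentage points over the 9 stretches (4.81 to 19.5) and of 29.9 over the 1152 autosomal stretches, of which 85.5% were called. Of these 1152, 230 had a range at or below the highest of the 9. The spread between samples of a strain was of like size, with a median SD of 5.41 points for the 9 stretches and 6.10 for autosomal stretches. Autosomal stretches in which every strain mean was intermediate, 30 to 70%, numbered 506. Of these 72.1% were called, with a median range of 21.3 points, and of the 255 with at least 13 positions 72.5% were called. This narrower background was chosen after the data were seen. That the 9 stretches were called less often than others was not itself tested, and with 3 samples per strain smaller differences can be missed. A simulation put a shift in a strain into 66 stretches at each size, among 1298. Of these, 4.55% were called at 10 points, 66.7% at 20 and 92.4% at 30. In it 1100 of the 1298 had no shift, whereas 78.5% of the real stretches were called. The adjustment of p-values was thus stricter in the simulation, and these shares do not give the sensitivity of the test on the real data.

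**Figure D2:**
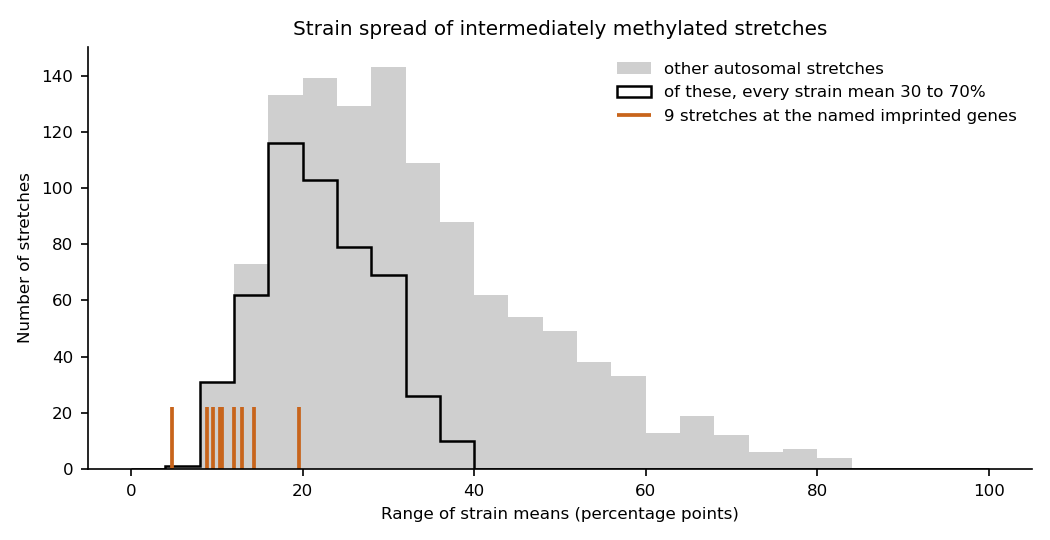
Number of autosomal intermediate stretches (y axis) by the range of strain means in percentage points (x axis). Grey bars are stretches elsewhere, the outline those with every strain mean at 30 to 70%, and orange lines the 9 stretches at the named genes, which lie between 4.81 and 19.5 points.

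Kcnq1ot1 is a long RNA transcribed from the father's copy within Kcnq1 and silences its neighbours on that copy. Its stretch, chr7:143295405-143295618, began 929 bp downstream of the transcript start and held 27 positions in 214 bp at a mean of 41.5%. A/J was lowest with 34.9, 38.2 and 34.6% in its samples, a mean of 35.9% ± 2.02 (SD, n = 3). WSB/EiJ was highest with 44.7, 49.3 and 44.7%, a mean of 46.2% ± 2.66 (SD, n = 3). The samples of these extreme strains did not overlap, and the other 7 strain means lay between 40.3 and 43.1%. Their difference of 10.3 points had a 95% interval of -1.09 to 21.8 points, and the strains were not called different (limma, adjusted p = 0.868). Such intervals, here and below, use the moderated spread within strains and were not widened for picking the extremes among 36 pairs. Within the stretch, levels were 46.6 to 50.6% over the first 9 positions and 34.3 to 38.5% over the rest, except for a single position at 54.2%. That position, chr7:143295576, was at 95.2% in CAST/EiJ and 82.2% in PWK/PhJ and at 29.5 to 61.1% in the other strains. It was not called (limma, adjusted p = 0.141). Position 143295577, by its coordinate the other strand of the same CpG, was at 25.1% in CAST/EiJ and 39.7% in PWK/PhJ.

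Airn is a long RNA that starts inside Igf2r, runs antisense to it from the father's copy and silences it there. The Airn stretch, chr17:12741590-12742421, lay 279 to 1110 bp downstream of the Airn start, with 36 positions at a mean of 41.9%. CAST/EiJ samples were at 51.3, 48.4 and 48.3%, a mean of 49.3% ± 1.69 (SD, n = 3). NOD/ShiLtJ samples were at 33.9, 32.1 and 45.9%, a mean of 37.3% ± 7.48 (SD, n = 3). All CAST/EiJ samples lay above those of NOD/ShiLtJ, by 12.0 points on average with a 95% interval of 2.63 to 21.4, and the other strain means lay between 38.7 and 44.0%. Over the 9 strains the stretch was not called (limma, adjusted p = 0.426).

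Igf2r encodes the receptor that removes insulin-like growth factor 2 and is expressed in liver from the mother's copy. Its promoter stretch, chr17:12769733-12770097, ended 27 bp upstream of the transcript start and held 37 positions at a mean of 37.4%, the lowest of the 9. In NZO/HlLtJ the samples were at 33.3, 25.7 and 36.1%, a mean of 31.7% ± 5.37 (SD, n = 3). In 129S1/SvImJ they were at 42.0, 41.2 and 44.0%, a mean of 42.4% ± 1.46 (SD, n = 3). The extremes did not overlap and differed by 10.7 points (95% interval 2.32 to 19.03), and the adjusted p over the strains was 0.209 (limma). A NOD/ShiLtJ sample at 52.8% lay above every 129S1/SvImJ sample, while the other NOD/ShiLtJ samples were both at 34.7%. Levels of single positions ran from 15.9 to 48.6%, a wider span than at Airn, where they ran from 34.7 to 48.5%. Downstream of the start, 33 positions at chr17:12769266-12769510 had a mean of 20.1%. There the strain means ran from 11.1% ± 4.00 (SD, n = 3) in NOD/ShiLtJ to 33.0% ± 15.2 (SD, n = 3) in DBA/2J, and the spread within strains was 12.5 points. This block was not called (limma, adjusted p = 0.496), whereas 19.9% of the 5937 blocks with a low level in the genome were.

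**Figure D3:**
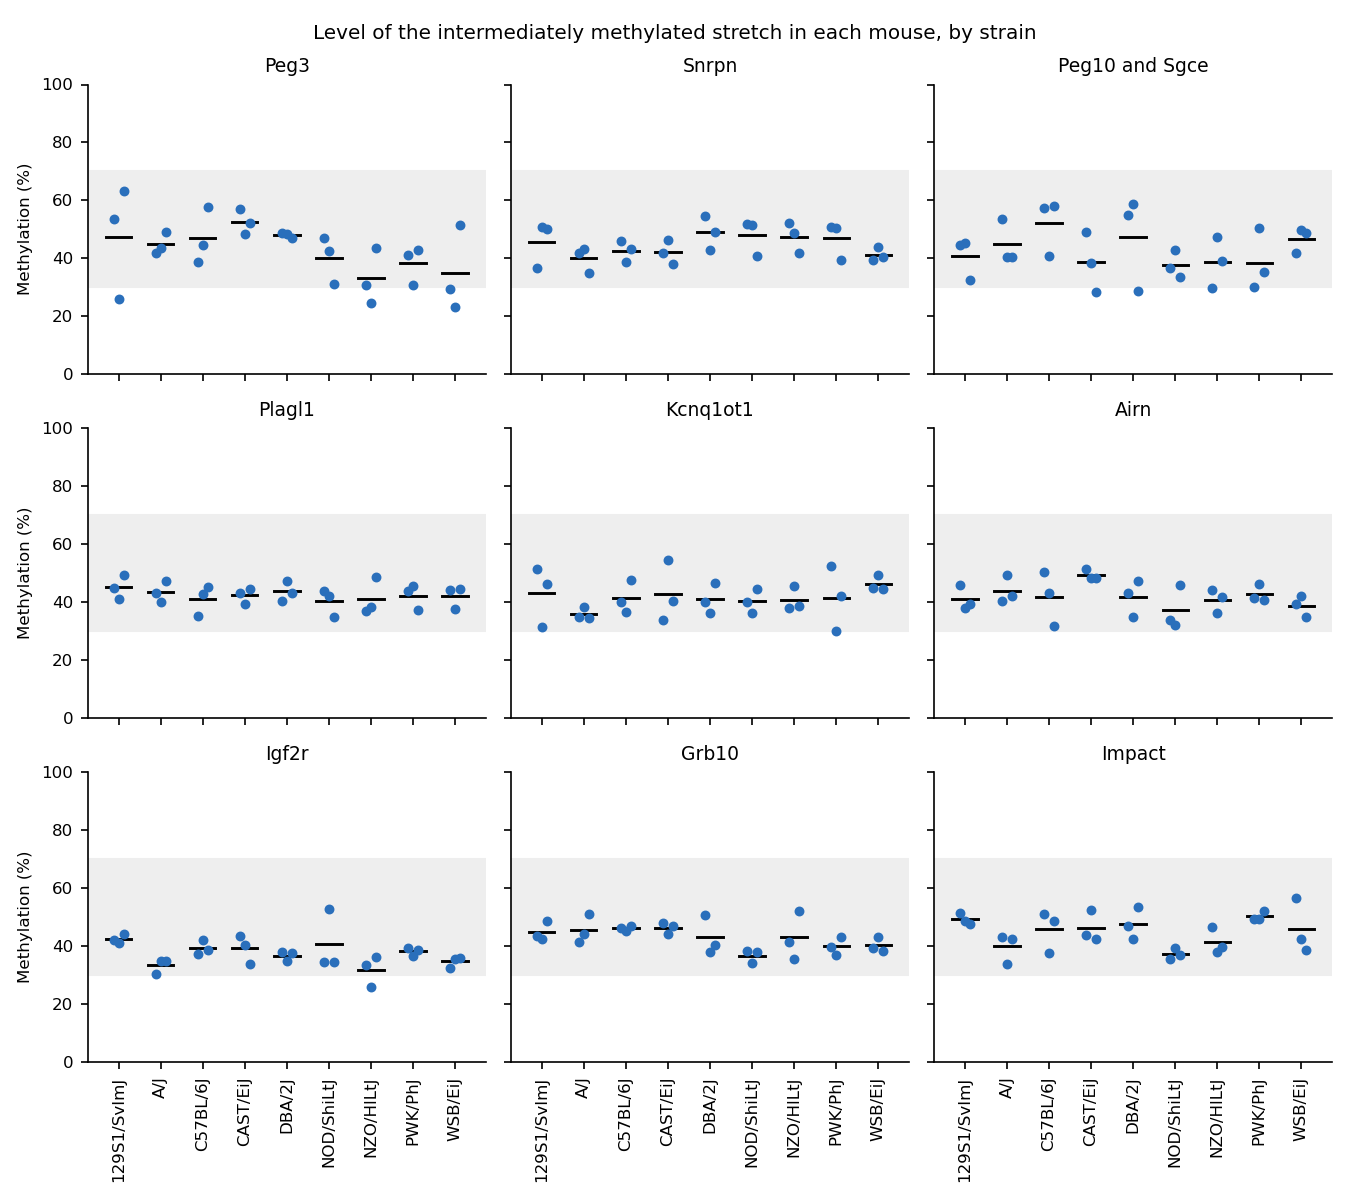
Methylation in percent (y axis) of each intermediate stretch by strain (x axis); points are the 3 samples of a strain, bars their mean, and the grey band 30 to 70%. Samples of a strain are farthest apart at Peg3 and at Peg10 and Sgce, and closest at Plagl1 and Grb10.

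Peg3, a zinc finger gene expressed from the father's copy, had the widest strain range of the 9 stretches and the fewest positions, 13. Its stretch, chr7:6729067-6730328, lay 91 to 1352 bp downstream of the transcript start at a mean of 42.9%. CAST/EiJ was highest, with samples at 56.98, 48.5 and 52.2% and a mean of 52.5% ± 4.26 (SD, n = 3). NZO/HlLtJ was lowest, with 30.8, 24.6 and 43.6% and a mean of 33.0% ± 9.71 (SD, n = 3). These strains did not overlap, and their difference of 19.5 points had a 95% interval of 4.13 to 34.9. The samples of a single strain differed by more than that: 129S1/SvImJ was at 53.5, 25.7 and 63.0%, and WSB/EiJ at 29.5, 23.3 and 51.4%. Within strains the SD was 10.1 points, and the stretch was not called (limma, adjusted p = 0.218). Without 129S1/SvImJ replicate 2, the sample at 25.7%, it was called with an adjusted p of 0.0231.

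Snrpn encodes a protein of the splicing machinery and is expressed from the father's copy. The stretch at chr7:60004580-60005229 ran from 30 bp upstream to 619 bp downstream of the start at position 60005199, with 26 positions at a mean of 44.7%. A/J samples were at 41.9, 43.1 and 34.97% and DBA/2J samples at 54.7, 42.9 and 49.1%. Those lowest and highest strains overlapped, at means of 40.0% ± 4.40 (SD, n = 3) and 48.9% ± 5.88 (SD, n = 3), and the interval of their difference of 8.89 points was -0.456 to 18.2. No difference was called (limma, adjusted p = 0.466).

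Within that stretch a single position, chr7:60004602, was called different among strains, as were 4.33% of the positions tested over the genome. In CAST/EiJ it was at 0% in 3 of 3 samples, whereas the other 24 samples were at 20 to 72.7% and the other strain means at 32.8 to 56.2% (limma, adjusted p = 0.000257). The next position, 60004603, is by its coordinate the other strand of the same CpG. That strand was at 59.6% in CAST/EiJ, the highest of the 9 strains, and at 44.2 to 54.8% in the others. The position before this CpG, 60004580, was at 15.3% in CAST/EiJ and at 37.2% or more in the other strains, which was not called (limma, adjusted p = 0.281). Strain sequences were not used here, so a sequence variant at this CpG was not tested.

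Peg10, a gene derived from a retrotransposon, and Sgce, which encodes epsilon-sarcoglycan, start back to back and are both expressed from the father's copy. Their stretch, chr6:4747355-4747490, began 49 bp inside Peg10 and 151 bp from the higher-coordinate boundary of Sgce, the side that faces Peg10, and held 18 positions in 136 bp at a mean of 42.8%. C57BL/6J samples were at 57.5, 40.9 and 57.9%, a mean of 52.1% ± 9.71 (SD, n = 3), and NOD/ShiLtJ samples at 36.7, 43.0 and 33.5%, a mean of 37.7% ± 4.82 (SD, n = 3). These extremes overlapped, and the interval of the 14.4 points between them was -0.196 to 29.0 (limma over the strains, adjusted p = 0.486). DBA/2J alone spanned 28.6 to 58.6%. Both strands of a CpG were listed at 8 sites here. The strand at the lower coordinate had a mean of 37.9% and the other 47.3%, a difference of 9.41 points ± 18.3 (SD, n = 27) that was above 0 in 19 of 27 samples. At the other 8 stretches the strand difference lay between -4.70 and 1.01 points.

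Plagl1, a zinc finger gene of the growth-related imprinted genes, is expressed from the father's copy. It had the narrowest strain range of the 9, 4.81 points over 72 positions. The stretch at chr10:13090813-13091189 ran from 19 bp upstream to 357 bp downstream of the transcript start at a mean of 42.4%. From NOD/ShiLtJ at 40.3% ± 4.80 (SD, n = 3) to 129S1/SvImJ at 45.1% ± 4.09 (SD, n = 3), the samples overlapped, and all 27 lay between 34.8 and 49.3%. The interval of the difference between these strains was -3.40 to 13.02 points (limma over the strains, adjusted p = 0.967).

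Impact, whose protein restrains the kinase GCN2 and so acts on translation, is expressed from the father's copy. Its stretch, chr18:12972198-12973506, lay 17508 bp inside the gene span, with 26 positions at the highest mean of the 9, 44.9%. PWK/PhJ samples were at 49.4, 49.4 and 52.1%, a mean of 50.3% ± 1.56 (SD, n = 3), and NOD/ShiLtJ samples at 35.6, 39.4 and 37.1%, a mean of 37.3% ± 1.94 (SD, n = 3). These groups did not overlap and differed by 12.95 points (95% interval 3.61 to 22.3), and the adjusted p of the stretch was the lowest of the 9, 0.138 (limma).

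Near the lower end of the Impact gene, 11 positions at chr18:12955747-12955932 formed a block with a low level, a mean of 6.97%, and here the strains differed. CAST/EiJ was at 17.7% ± 1.42 (SD, n = 3), with samples from 16.1 to 18.7%, above all 24 other samples, the highest of which was an A/J sample at 14.6%. A/J was next at 11.3% ± 4.41 (SD, n = 3) and PWK/PhJ at 8.88% ± 3.32 (SD, n = 3). NZO/HlLtJ was lowest at 0.722% ± 0.649 (SD, n = 3). The block was called (limma, adjusted p = 8.13e-05), against the same 19.9% of low blocks. Its test was added after the values were seen.

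Grb10 encodes an adaptor protein that binds the insulin receptor and is expressed from the mother's copy in most tissues and from the father's copy in neurons. Its stretch, chr11:12025602-12026881, lay 1090 to 2369 bp downstream of a second start at position 12027971 and held the most positions, 128, at a mean of 42.9%. NOD/ShiLtJ samples were at 38.3, 34.0 and 37.9%, a mean of 36.7% ± 2.38 (SD, n = 3), and CAST/EiJ samples at 47.8, 44.0 and 46.9%, a mean of 46.2% ± 1.98 (SD, n = 3). The extremes did not overlap and differed by 9.52 points (95% interval 1.24 to 17.8), but the strains were not called different (limma, adjusted p = 0.302). In contrast, the main start of Grb10, shown above, sat in a block of 223 positions at chr11:12036661-12038772 with a mean of 2.88%. The lowest strain mean there was that of CAST/EiJ, 2.05% ± 0.153 (SD, n = 3), and the highest that of A/J, 4.65% ± 0.492 (SD, n = 3), and all A/J samples, at 4.09 to 5.01%, lay above the other 24, the highest of which was at 4.01%. The adjusted p was 0.00315 (limma), but the range of 2.60 points was under the 10 points required for a call. This test of a block was not planned.

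**Figure D4:**
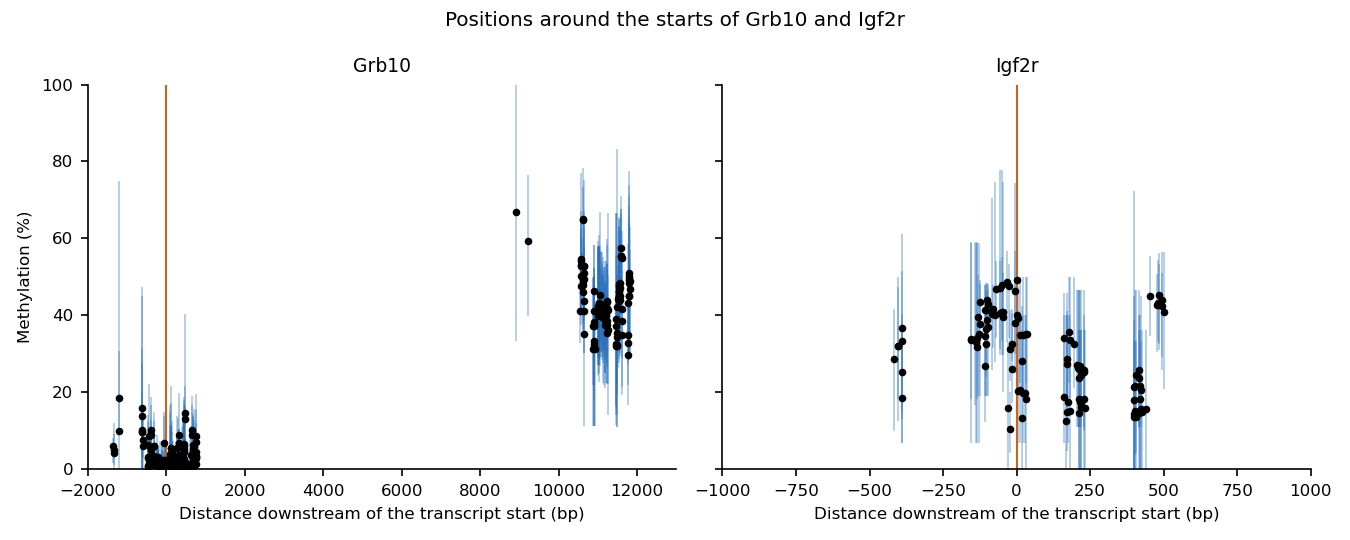
Methylation in percent (y axis) of kept positions against the distance in bp downstream of the transcript start (x axis, orange line at the start) at Grb10 and Igf2r. Points are means of 9 strains and lines the range of strain means; the Grb10 start is near 0% and its stretch lies far downstream, whereas at Igf2r levels are intermediate just upstream of the start and 20.1% on average in the block downstream of it.

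Extents of the stretches depended on where RRBS lists positions and on which of them were kept. At 7 of the 9 stretches the next kept position lay more than 1 kb away on both sides. The outer edges there were set by a lack of kept positions and not by a measured change of level. Positions in these gaps that were listed in too few samples were not examined. Beyond these gaps the next levels were mostly high: 98.7 and 98.2% on the sides of the Impact stretch, 95.02 and 86.3% at Peg3, and 92.0 and 95.6% at Peg10 and Sgce. They were intermediate on a side of Airn, 51.6%, of Grb10, 59.2%, and on the downstream side of Plagl1, 61.0%, where the gap was 17240 bp. At Igf2r and on the upstream side of Plagl1 the next kept positions were close by, and the edge lay where the running median left the limits. The neighbour at Plagl1 was 15 bp away at 27.2%, and those at Igf2r were 5 bp away at 10.4% and 11 bp away at 31.9%, the last of which is itself within 30 to 70%. At Plagl1 the neighbour, 13090798, is a single strand of a CpG whose other strand, 13090797, was at 37.9%. Their mean was 32.6%, within the limits. With both strands averaged the Plagl1 stretch was 567 bp long, so its upstream edge is not a measured fall below 30%.

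The rule was then applied to the mean of each strain separately. It found a stretch in 75 of 81 cases. Impact gave the same 1309 bp in all 9 strains, and Peg10 and Sgce the same 136 bp in the 7 strains where a stretch was found, 129S1/SvImJ and NOD/ShiLtJ being the exceptions. In 129S1/SvImJ, 9 of the 18 positions there had a mean below 30%, and the level over all 18 was 40.7% ± 7.20 (SD, n = 3). Among them 4747363 was at 25.1%, while 4747364, by its coordinate the other strand of that CpG, was at 55.8%. In NOD/ShiLtJ 4 of the 18 were below 30%, and the level was 37.7% ± 4.82 (SD, n = 3). At Peg3 none was found in NOD/ShiLtJ, NZO/HlLtJ and WSB/EiJ, and at Snrpn none in C57BL/6J. In C57BL/6J, 8 of the 26 positions of the Snrpn stretch had a mean below 30%, and the level over all 26 was 42.6% ± 3.64 (SD, n = 3). Grb10 varied from 252 bp in NOD/ShiLtJ to 1280 bp in CAST/EiJ, Airn from 46 bp in WSB/EiJ to 832 bp in 6 strains, and Igf2r from 50 bp in 129S1/SvImJ to 427 bp in C57BL/6J. At Kcnq1ot1 the length ran from 65 bp in A/J to 214 bp in 5 strains. Plagl1 ended at the same position in all 9 strains and began at position 13090623 in C57BL/6J, where it was 567 bp long, against 13090813 over all strains. Lengths also varied between single samples, where a sample without a stretch was entered as 0 bp. The SD between samples of a strain was 516 bp at Peg3, 376 bp at Impact, 325 bp at Grb10, 279 bp at Airn and 141 bp at Igf2r. In single samples no stretch was found at Peg10 and Sgce in 10 of 27, at Peg3 in 9 and at Snrpn in 7. None was found at Kcnq1ot1 in 4, at Igf2r in 2 and at Airn in 1, while at Impact, Plagl1 and Grb10 a stretch was found in each.

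**Figure D5:**
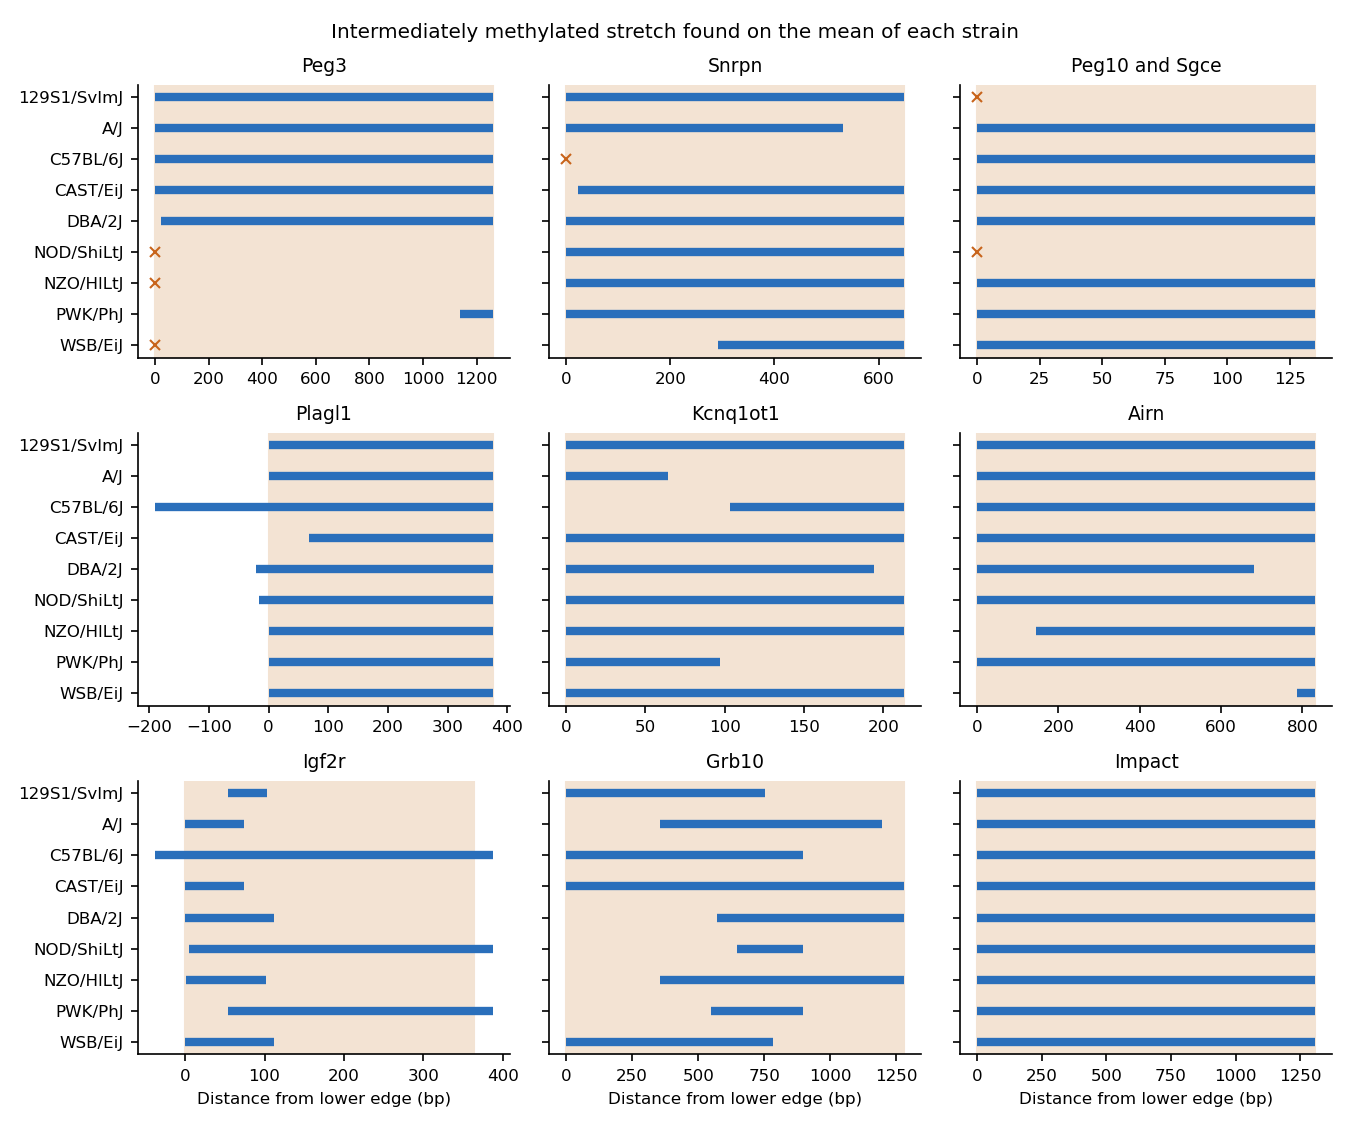
Extent of the intermediate stretch found on the mean of each strain (rows) as distance in bp from the lower edge of the stretch found over all strains (x axis, shaded). Crosses mark strains without a stretch; Impact has the same extent in 9 strains, and Airn runs from 46 to 832 bp.

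The mean over the 9 stretches was not tested between strains. It ran from 39.8% in NZO/HlLtJ (± 2.36, SD, n = 3) and in NOD/ShiLtJ (± 1.87, SD, n = 3) to 44.4% ± 3.42 (SD, n = 3) in 129S1/SvImJ. All DBA/2J samples, at 42.6 to 46.4%, lay above all samples of NOD/ShiLtJ, at 37.8 to 41.5%, and of NZO/HlLtJ, at 37.7 to 42.4%. Samples of 129S1/SvImJ, the highest strain, were at 40.5 to 46.7% and overlapped both. NOD/ShiLtJ had the lowest strain mean at 5 of the 9 stretches and CAST/EiJ the highest at 3. At 6 of the 9 the samples of the highest strain lay wholly above those of the lowest, and at Snrpn, Peg10 and Sgce, and Plagl1 they overlapped. The extremes were picked from 9 strains, and the test that called 78.5% of all stretches called none of these 6. How many stretches over the genome have extremes without overlap was not counted, so the 6 of 9 cannot be read as a trait of these genes.

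Position by position, 774 of the 940 kept positions had a mean far enough from 0 and 100% to be tested, and 3 of them (0.388%) were called (adjusted p under 0.05 and strain means spanning at least 25 points), against 4.33% of the 868536 tested over the genome. Without the minimum range 6 passed, against 4.67%. The median range of strain means was 23.5 points at the tested positions of the 10 genes and 17.0 at all tested positions. These sets were not matched by level, so the medians do not show whether strains differ less at single positions here. The difference in the share of calls was not tested. Calls rose to 8 without C57BL/6J replicate 1, to 6 without A/J replicate 1 or CAST/EiJ replicate 5, and to 5 without 129S1/SvImJ replicate 3, C57BL/6J replicate 2, DBA/2J replicate 3 or 4, or WSB/EiJ replicate 3. Besides the Snrpn position, the called positions lay outside the stretches. At chr17:12790606, in the span of Airn beyond Igf2r, A/J was at 20.6% ± 4.19 (SD, n = 3), PWK/PhJ at 26.1% ± 12.1 (SD, n = 3) and NZO/HlLtJ at 13.9% ± 12.7 (SD, n = 3), and the other strain means were at 5.56% or less (limma, adjusted p = 0.0347). At chr11:12038626, upstream of the main Grb10 start, the listed samples of 129S1/SvImJ, 2 of 3, were at 50 and 100%. A DBA/2J sample was at 40.0% and all other listed samples at 0% (limma, adjusted p = 0.00643). The position next to it, 12038625, is by its coordinate the other strand of the same CpG. That strand was at 20.6% in 129S1/SvImJ and did not differ by the test (limma, adjusted p = 0.775).

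What lay outside the stretches differed between the genes. Kept positions outside a stretch had a mean over 70% in 14 of 14 cases at Peg3, 38 of 38 at Peg10 and 16 of 16 at Sgce. The share was lower at Plagl1, 23 of 37, at Kcnq1ot1, 13 of 21, and at Snrpn, 9 of 13. It was 6 of 17 at Impact, 35 of 119 at Igf2r, 26 of 115 at Airn and 20 of 251 at Grb10. At Peg10 the 38 positions at chr6:4755338-4756673 spanned 91.2 to 95.7% over the strains (limma, adjusted p = 0.329), and 9.25% of the 13888 blocks with a high level in the genome were called. Low positions outside a stretch, under 30%, numbered 227 at Grb10, 55 at Airn, 51 at Igf2r, 11 at Impact, 6 at Kcnq1ot1 and 4 at Plagl1, and 0 at Peg3, Snrpn, Peg10 and Sgce. Another 34 positions at Airn and 33 at Igf2r were at 30 to 70%. Airn and Igf2r share those that lie where their windows overlap, a part that holds the starts of both genes.

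Other imprinted genes were taken as counts from fixed lists. Of 11 further genes with maternal methylation, 10 were in the gene table and 8 had 1 to 5 intermediate stretches in their window, of which the stretch with the most positions was taken for each gene. Of these 8, 2 were called, against 78.5% of all stretches: Mest, a gene expressed from the father's copy, and Peg13. Mest had the widest range of the list, 50.02 points, from 37.0% in DBA/2J to 87.0% in CAST/EiJ (limma, adjusted p = 3.8e-08), and the median range of the 8 was 12.5 points. Cdh15 ran from 34.6% in 129S1/SvImJ to 69.3% in NZO/HlLtJ, a range of 34.7 points. It was not called, with an adjusted p just above the threshold (limma, adjusted p = 0.0504). Among 5 genes with methylation from the father, 3 had a stretch and 1 was called against the same 78.5%, H19, a long RNA expressed from the mother's copy, with a range of 23.6 points (limma, adjusted p = 0.0244). The widest range of these 3, 24.4 points at Igf2, was not called (adjusted p = 0.0635). Of 14 neighbours in the clusters of the named genes, such as Ube3a, Cdkn1c and Slc22a3, none had a stretch of its own, and 2, Usp29 and Kcnq1, contained a stretch described above. At single positions, against 4.33% of all tested positions, 51 of 1099 (4.64%) were called in the first of these lists, 2 of 445 (0.449%) in the second and 16 of 1049 (1.53%) in the third.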

How the data were processed

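DNA methylation of hepatocytes was measured by RRBS in 27 samples, 3 from each of 9 strains, grouped by the strain in their labels. Per the labels' protocols, libraries were made by MspI digestion, adapter ligation, bisulfite treatment and PCR. The submitters' processing notes name Trim Galore 0.6.3, Bowtie2, Bismark 0.22 and the builds GRCm38 and mm10. The authors deposited a percent methylation per position, per the file headers, without read counts, so the depth and any coverage filter are unknown. The C57BL/6J files name the mitochondrial chromosome differently from the other files, and a difference in processing behind this cannot be told apart from strain.

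Positions listed in at least 2 of 3 samples of every strain were kept. The means of positions, of intermediate stretches and of blocks (runs found by the same rule below 30 or above 70%) were tested over the 9 strains on log2((percent + 5)/(100 - percent + 5)). Levels outside the stretches were planned as a description, so all tests of blocks were additions to the plan. The moderated F test of limma took all 27 samples in a single fit, with Benjamini-Hochberg adjustment over all features of a kind. Features with a mean within 2.5 points of 0 or 100% were not tested. A planned model on read counts could not be fitted, as the files hold percentages. Computations used Python 3.11.15 (pandas 2.3.3, numpy 2.4.6, scipy 1.17.1). Calls were compared with those of R 4.3.3 and its package limma 3.58.1, and the code was tested on simulated data. Figures were drawn with matplotlib 3.10.9. Genes and promoters were matched by symbol to RefSeq tables of GRCm38.p6; exon and intron positions were not used here.

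The members and lists were chosen with earlier results of these data known. All 10 genes are named; of other lists the gene with the widest range is named, other names were chosen after their values were seen, and of the positions the called position with the widest range in each window. The lists were 11 genes with maternal methylation (Mest, Nap1l5, Nnat, Mcts2, Inpp5f, Gnas, Nespas, Zrsr1, Slc38a4, Peg13, Cdh15), 5 with paternal methylation (H19, Igf2, Meg3, Dlk1, Rasgrf1) and 14 neighbours. P-values test differences among the strain means against the spread between the samples labelled biological replicates, moderated over all features of a kind. Alternatives changed the offset, scale, filters, strands, limits, gaps and flanks, or left out each sample in turn.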

Additional observations from a re-analysis of the deposited data

How the results depend on the processing

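In all, 988 alternative values were computed under 42 settings, 27 of which left out 1 sample each. Of these values 959 were labelled as unchanged, 28 as moved, 1 as newly passing the threshold and 0 as reversed. The first label includes values that shifted by a smaller amount or stayed on the same side of the threshold. With a sample left out, the adjusted p at Peg3 reached 0.370 (limma), against 0.218 as reported. Levels, extents, counts and p-values of an F test have no sign, so the 0 for reversed values carries no information. None of the 332 alternative levels of single stretches moved by more than the spread between samples of a strain. Most of these levels left out 1 sample, which alters a mean over 9 strains too little to exceed that spread. At Peg3 they ran from 41.9 to 44.1%, against an SD within strains of 10.1 points. They therefore do not show that levels are stable. The 341 alternative adjusted p-values of the 9 stretches ran from 0.0231 to 0.994, and a single one passed: Peg3 without 129S1/SvImJ replicate 2, so that leaving out each sample gave 0 to 1 called stretches among the 9. The low block at Impact stayed called without each sample in turn, with an adjusted p of 3.32e-05 to 0.000456. Over the genome, called stretches numbered 1021 as reported, 994 to 1025 with samples left out, 1586 (74.9%) with limits of 25 to 75%, 577 (79.5%) with limits of 35 to 65%, 348 (79.3%) without the running median and 352 (80.7%) with both strands averaged; the number of stretches tested changed with these settings. The 3 called positions in the windows became 7 on the untransformed scale, 5 with a flank of 10 kb, 6 with a minimum range of 10 points, 6 with positions listed in all 27 samples, and 2 to 8 with samples left out. The median extent of the 9 stretches, 650 bp, was 377 bp with limits of 35 to 65% and 377 bp with gaps of at most 500 bp. Single extents moved in 8 of 89 cases: Grb10 to 556 bp (35 to 65%) and 2910 bp (gaps of at most 2 kb), Igf2r to 78 bp (35 to 65%), Peg3 to 123 bp (35 to 65%) and 387 bp (gaps of at most 500 bp), Impact to 376 bp (gaps of at most 500 bp), and Plagl1 to 567 bp (25 to 75%, and strands averaged). The Peg3 stretch was not found among positions listed in all 27 samples. Replicate numbers in the titles do not pair samples across strains: over 76 pairs of same-numbered samples the mean correlation of deviations was 0.000877, and 0 were above 0.1. With the replicate number as a block, 75.3% of the 1300 stretches and 5 of the positions in the windows were called.

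The precision is limited by 3 samples per strain and an unknown read depth. The stretches with the fewest positions, at Peg3 and at Peg10 and Sgce, are those where samples of a strain differ most. Sequence differences between strains were not used, and parental copies were not separated.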
